A study of Saccharomyces cerevisiae with 48 samples.

Results

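The cytosolic ribosomal protein genes of budding yeast were followed through 24 peak lists. Members were the protein-coding genes of the R64 gene table with a symbol of the form RPL, RPS or RPP plus a number and, for duplicated genes, the letter A or B. This took 138 of the 6002 protein-coding genes. RPP1 matched the rule although it encodes a subunit of the RNA-processing enzymes RNase P and RNase MRP, so it was set aside and 137 genes were described. Of these, 81 encode proteins of the large subunit, among them the 5 genes RPP0, RPP1A, RPP1B, RPP2A and RPP2B of the acidic stalk, and 56 encode proteins of the small subunit. They form 59 pairs of A and B copies (118 genes) and 19 single-copy genes.

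Ribosomal proteins are made in near-equal amounts, and in growing yeast their genes are among the most heavily transcribed by RNA polymerase II. Their promoters are bound by Rap1, which recruits Fhl1 and its coactivator Ifh1, and the class is turned up or down together with growth. Most of these genes exist as a pair of paralogs, called A and B, that encode nearly the same protein from different places in the genome. Transcription twists DNA, leaving it under-wound behind the polymerase and over-wound ahead, and the topoisomerases Top1 and Top2 relax both.

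Rpb1 and bTMP were measured, each with 1 immunoprecipitate per strain and condition and no replicate. Rpb1 is the catalytic core subunit of RNA polymerase II, and it was mapped by chromatin immunoprecipitation in S phase in wild type (WT), sen1, rrm3 and sen1rrm3. Biotinylated trimethylpsoralen (bTMP), which intercalates preferentially into under-wound DNA, gave 20 lists: the same 4 strains were sampled in S phase, during log growth and at 32 °C, again during log growth with top1 added to each, and again at 32 °C with the temperature-sensitive top2-1 added to each. The Sen1 helicase acts in termination of RNA polymerase II on short transcripts, and the Rrm3 helicase assists replication forks at protein barriers. All cultures were first grown in YPG. S-phase cultures were held in YPD with alpha factor and collected 45 to 50 min after release at 23 °C. Log cultures spent 2.5 h in YPD. The 32 °C cultures, with or without top2-1, spent 1.5 h in YPD at 25 °C before the shift to 32 °C for 1 h. The labels give the strains by gene name alone, without the nature of the sen1, rrm3 or top1 allele and without a count of clones.

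The lists differed in kind. The Rpb1 lists held 2016 to 2136 peaks over 18.9% to 20.2% of the nuclear genome. Of the bTMP lists, 14 had narrow, closely spaced peaks (3171 to 4901 peaks, median width 234 to 262 bp, smallest gap 156 to 166 bp, 7.0% to 11.7% of the genome). The other 6 had wide, widely spaced peaks (2678 to 3645 peaks, median width 599 to 685 bp, smallest gap 591 to 631 bp, 17.5% to 25.9%): the 4 S-phase lists and, at 32 °C, sen1 and sen1rrm3. RRM3 itself lay under no peak in the 12 lists labelled rrm3, but it also lay under none in wild type, sen1 and sen1top2-1 at 32 °C. TOP1 lay under no peak in 3 of the 4 lists labelled top1, and in the list labelled sen1rrm3top1 a peak covered 10.8% of it.

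In S phase Rpb1 peaks covered nearly the whole body of every ribosomal protein gene but RPL15B. The mean share of the gene body under Rpb1 peaks was 99.3% in wild type, 99.2% in sen1, 99.3% in rrm3 and 99.2% in sen1rrm3, against 23.0%, 24.6%, 22.8% and 23.0% over all protein-coding genes. RPL15B, a copy of the gene for a large-subunit protein, was at 0 in all 4 strains while its partner RPL15A was covered. Of the remaining 136 genes, RPL35B was the lowest, at 88.8% in sen1rrm3, followed by RPL23A at 92.7% in sen1. The RNase P gene RPP1 ranged from 83.1% to 99.0%. No member passed from uncovered to at least 50% covered, or back, in any mutant, where 1.88% of all genes were gained and 0.716% lost in sen1, 0.133% and 0.217% in rrm3, and 1.07% and 0.716% in sen1rrm3. With body cover at its ceiling, a rise in polymerase over these genes could not have been seen in this measure.

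The reach of the peaks was not at a ceiling, and it was shorter on the promoter side in sen1. Measured from the gene start, the median upstream end of the peak was at 106 bp in wild type and 103 bp in rrm3, against 75 bp in sen1 and 97 bp in sen1rrm3 (136 genes). Against wild type the sen1 peaks ended nearer to the gene by a median of 29 bp, a shift of -29 bp, with 127 genes shorter and 9 longer, where 66.1% of all genes with such a peak were shorter. The median shift of the other genes was similar, at -27 bp, but was spread more widely, with 62.3% of them shorter. In rrm3 the median shift was 1 bp, with 61 genes shorter and 69 longer (45.9% shorter and 52.8% longer among all genes), and in sen1rrm3 it was -8.5 bp, with 88 shorter and 45 longer (68% shorter among all genes). The median shift was smaller in the double mutant than in sen1, and this difference was not tested because each strain has 1 list. Upstream ends at least 500 bp farther out than in wild type were seen at 3 members in sen1, 2 in rrm3 and 3 in sen1rrm3, where 5.71%, 0.993% and 4.57% of all genes had them.

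The same was seen in the 300 bp upstream of the start, the promoter side. The mean share of these bases under Rpb1 peaks was 43.8% in wild type, 36.0% in sen1, 44.1% in rrm3 and 42.6% in sen1rrm3, against 9.02% to 10.8% over all genes. In sen1, 57 of 137 genes were lower by at least 10 percentage points and 3 were higher, where 5.76% of all genes were lower and 6.93% higher. Large-subunit genes (36 of 81) and small-subunit genes (21 of 56) were lower in similar shares. Lower values were also seen outside the class: of the 367 other genes whose whole body lay under wild-type Rpb1 peaks, 168 were lower and 37 higher. Those genes were chosen by full cover in wild type, which is also the baseline, and that choice favours lower values in any mutant. In rrm3, 3 members were lower and 2 higher (1.78% and 3.12% of all genes), and in sen1rrm3 10 were lower and 5 higher (4.53% and 5.16%). Of the 367 other genes, 52 were lower and 36 higher in rrm3, and 127 were lower and 37 higher in sen1rrm3.

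At 5 promoters the difference reached 50 points, and each time the longer peak ran more than 1000 bp upstream. In sen1 and in sen1rrm3, 1 member was lower by this much and 2 were higher, where 1.1% and 3.23% of all genes were in sen1 and 1.32% and 2.25% in sen1rrm3. In rrm3 1 member was lower and 2 higher, where 0.483% and 0.433% of all genes were. RPS24A, which encodes a small-subunit protein, had 100% of its upstream 300 bp under an Rpb1 peak in wild type and 32.3% in sen1, 39% in rrm3 and 36% in sen1rrm3. In wild type the RPS24A peak spanned chromosome V from 303886 to 307562, in rrm3 from 306257 to 307587. RPL42B, for a large-subunit protein near the exit site, went the other way: 34.7% in wild type and 32.0% in rrm3, but 100% in sen1 and sen1rrm3. Its peak on chromosome VIII ran from 381411 to 382855 in wild type and from 381438 to 384817 in sen1. RPS19B followed the RPL42B pattern, with 38.7% in wild type, 28.0% in rrm3 and 100% in both sen1 strains. RPL4A and RPL35A were fully covered in rrm3 alone, from 41.3% and 39.7% in wild type.

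**Figure D1:**
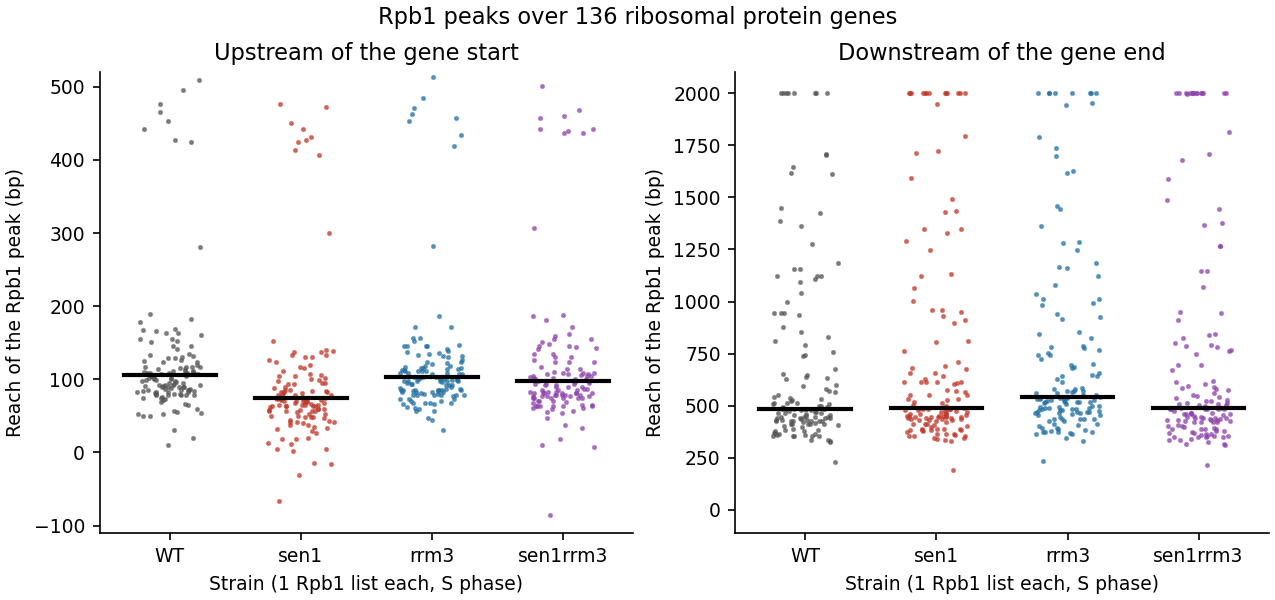
Reach of the Rpb1 peak beyond each of 136 ribosomal protein genes, in bp, upstream of the gene start (left) and downstream of the gene end (right), in the 4 strains. Points are genes and bars are medians; 12 or 13 genes per strain lie above the left axis limit of 520 bp, and 8 to 14 genes per strain above 2000 bp are drawn at 2000 on the right. The sen1 points sit lower on the left (median 75 bp against 106 bp in wild type), and the rrm3 median is the highest on the right (540 bp).

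Past the gene end the pattern was different. Peaks ran downstream by a median of 486 bp in wild type, 490 bp in sen1 and 488 bp in sen1rrm3, and by 540 bp in rrm3, against 311.5 to 368 bp for other genes. In rrm3 the end lay farther out by a median of 28 bp, with 111 genes longer and 25 shorter, where 62.9% of all genes were longer and the other genes moved by a median of 10 bp. In sen1 the median moved by -9 bp, with 67 genes longer and 69 shorter (43% of all genes longer). In sen1rrm3 it moved by -10 bp, with 49 genes longer and 85 shorter (37.8% and 61.7% of all genes).

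Long extensions appeared in the sen1 strains at a subset of these genes. In sen1, 14 of the 136 genes had a peak ending at least 500 bp farther downstream than in wild type, where 5% of all genes did. In sen1rrm3 there were 12 such genes (4.2% of all genes), and all 12 were among the 14 of sen1, which is 85.7% of the sen1 genes. In rrm3 there were 3 (2.4%), RPL11B, RPL12A and RPS15. Both comparisons share the wild-type list, so this overlap is not one of independent comparisons. RPL12A, whose protein sits at the base of the stalk, showed the longest extension: its peak ended 1121 bp past the gene in wild type and 1943 bp in rrm3, against 4686 bp in sen1 and 4701 bp in sen1rrm3. RPL15A ended at 411 bp in wild type and 425 bp in rrm3, but at 3365 bp in sen1 and 3364 bp in sen1rrm3. RPS29A, for a small zinc-binding protein, ended at 1040, 1011, 3823 and 3559 bp in wild type, rrm3, sen1 and sen1rrm3. RPS26B, for a protein at the mRNA exit, ended at 1183, 1159, 3419 and 2858 bp in the same order. At all 4 genes both sen1 lists lay above wild type and rrm3. These 4 were chosen for the longest extensions in sen1 against wild type, so sen1 lay above wild type by that choice. At RPL12A the peak took in 1 gene in wild type and 3 in sen1, so these lengths include neighbouring transcription units. In the opposite direction, 9 genes had peaks at least 500 bp shorter in sen1, where 4.73% of all genes did, among them RPL31A, from 2916 to 680 bp.

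Ribosomal protein genes stood near the top of the Rpb1 lists by the authors' peak score. The median rank of the best peak over a member was 138 in wild type, 173 in sen1, 125.5 in rrm3 and 166.5 in sen1rrm3, where other covered genes had medians of 604 to 681. Of the 100 highest peaks, 40 overlapped a member in wild type, 33 in sen1, 48 in rrm3 and 34 in sen1rrm3. Of the 200 highest peaks, 109 overlapped a member in wild type, 77 in sen1, 113 in rrm3 and 83 in sen1rrm3. The lists differ in length and each strain has 1 list, so these values describe each list. The difference between strains was not tested. In each strain, 100 to 104 of the 136 genes shared their peak with another gene.

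bTMP peaks, in contrast to Rpb1, were not dense over these genes. Relative coverage sets the share of a class's bases that lie under peaks against the same share for the 16 nuclear chromosomes, so that 1 is the genome average. Over gene bodies plus 300 bp upstream it was 1.52 in S-phase wild type, 1.24 in sen1, 0.94 in rrm3 and 0.96 in sen1rrm3. In log phase it was 1.41, 1.31, 1.01 and 0.96 in the same order. With top1 it was 0.83, 0.73, 0.76 and 0.77, below the genome average in all 4. At 32 °C it was 1.06, 1.15, 0.75 and 0.97, and with top2-1 0.96, 1.11, 0.94 and 0.90. Wild type in S phase and in log phase thus had the highest values of the 20 lists, and the top1 lists and rrm3 at 32 °C the lowest. Over all protein-coding genes the values ran from 0.965 to 1.07.

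**Figure D2:**
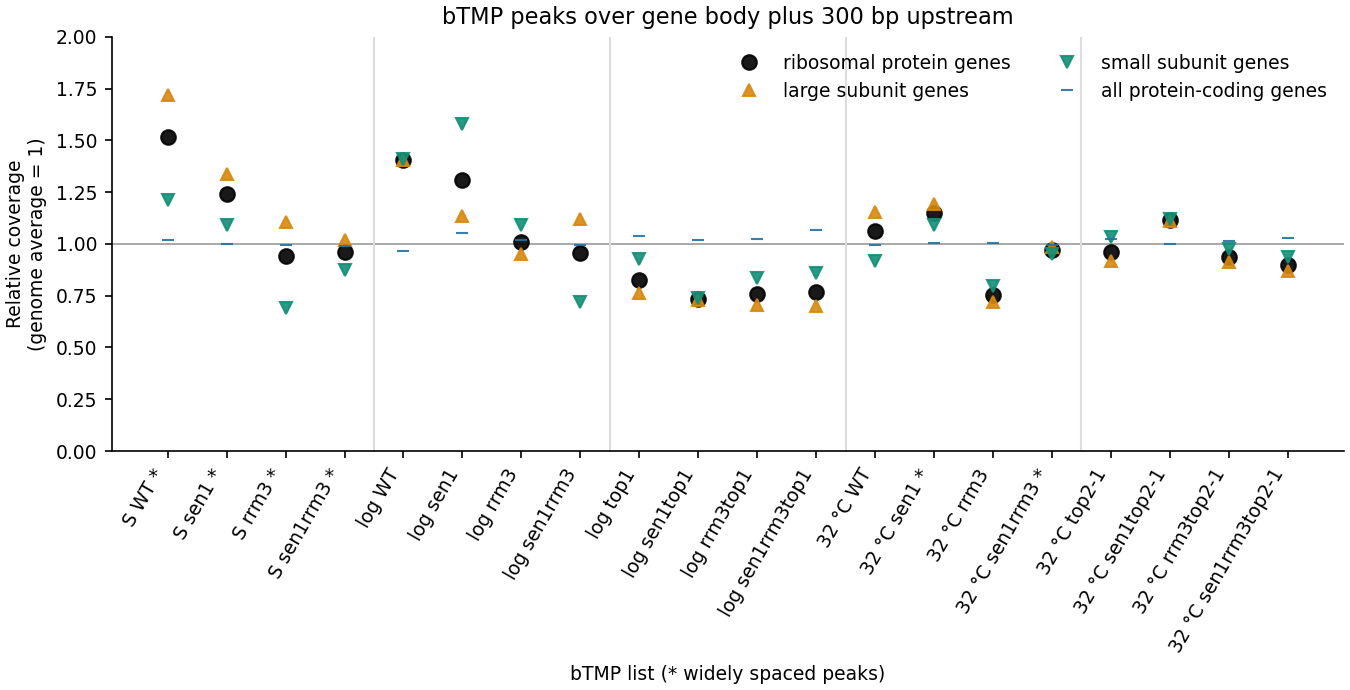
Relative bTMP coverage (genome average 1) of gene body plus 300 bp upstream in each of the 20 lists, for all 137 ribosomal protein genes, for large-subunit and small-subunit genes, and for all protein-coding genes. Asterisks mark widely spaced lists. The class is at 1.52 in S-phase wild type and between 0.73 and 0.83 in the 4 top1 lists.

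Along the gene, bTMP peaks sat at the start, as they did in genes at large. Averaged over the 14 closely spaced lists, relative coverage was 1.95 at 25 bp before the start of ribosomal protein genes and 1.96 at the same place over all genes. Farther upstream the class fell away faster: 200 bp before the start it was 0.78 for ribosomal protein genes and 1.31 for all genes. At 500 bp before the start the order turned, 1.55 against 1.06. The 6 widely spaced lists were flatter, with 1.41 against 1.44 at 25 bp before the start and 1.15 against 1.32 at 200 bp before it. Rpb1 over the same genes rose from 0.84 at 200 bp before the start to 4.97 at 25 bp before it. In the closely spaced lists the class thus lay below all genes 200 bp before the start and level with them 25 bp before it.

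**Figure D3:**
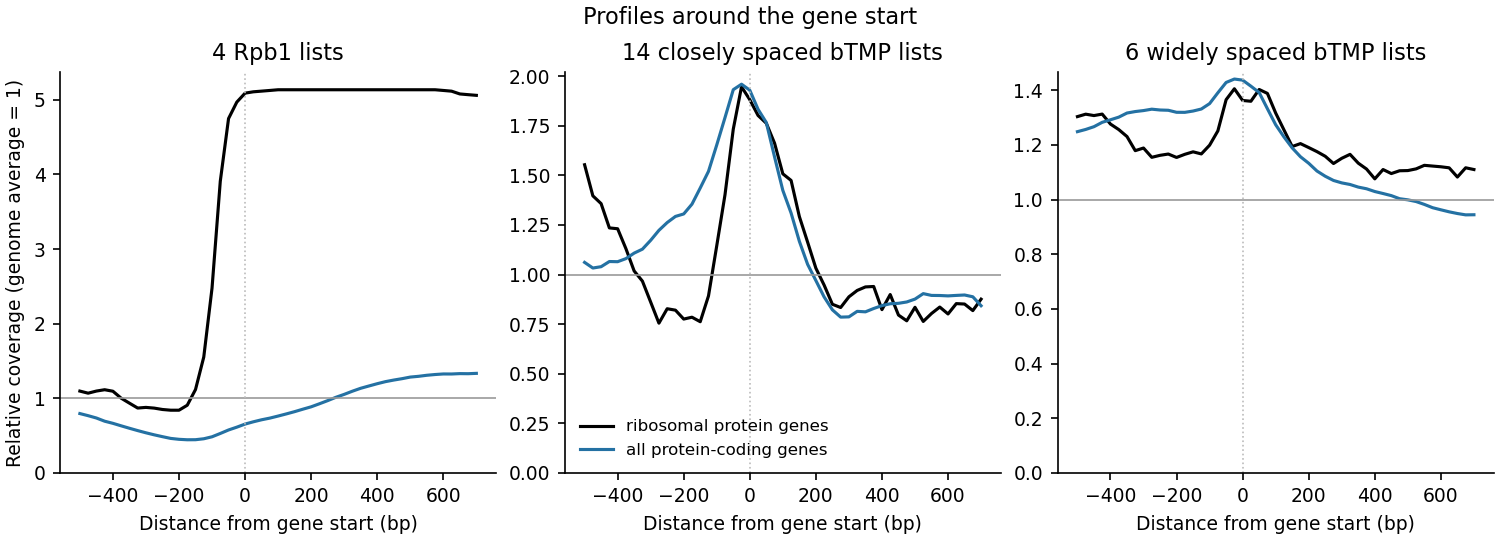
Relative coverage by distance from the gene start (bp) for ribosomal protein genes and all protein-coding genes, averaged over the 4 Rpb1 lists, the 14 closely spaced and the 6 widely spaced bTMP lists. Rpb1 reaches 5.09 at the start of ribosomal protein genes, and bTMP in closely spaced lists peaks at 1.95 just before the start, with 0.78 at 200 bp before it.

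Over the whole 300 bp upstream, relative bTMP coverage of the class ran from 0.714 in log sen1top1 to 1.96 in log wild type. Set beside the 367 other genes whose whole body lay under wild-type Rpb1 peaks, ribosomal protein genes had the lower relative coverage of the 300 bp upstream in 20 of 20 bTMP lists, of the body in 15 of 20, and of both together in 19 of 20. Within the class, Spearman's rho between the rank of the Rpb1 peak in wild type and mean bTMP cover was -0.05 across 136 genes, and -0.11 between gene length and bTMP cover across 137. These are descriptions across genes, which are not independent. Of the members, 77 have a divergently transcribed neighbour upstream and 60 a tandem one, and mean upstream bTMP cover was 15.4% and 16.3%. The 10 genes that share their upstream region with another ribosomal protein gene running the other way, such as RPL24A with RPL30 and RPL13A with RPS16B, had a mean of 2.25%, with a median of 0. These genes are partners of each other, so each shared region was counted from both of its genes and the 10 values are not independent.

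The cover was carried by part of the class, and 18 of the 137 genes lay under no bTMP peak in any of the 20 lists. The zero group was RPL2B, RPL7A, RPL7B, RPL12B, RPL13A, RPL13B, RPL17A, RPL19B, RPL20B, RPL25, RPL41B, RPP0, RPP2A and RPP2B of the large subunit, and RPS1A, RPS8B, RPS10B and RPS22A of the small. Of all other protein-coding genes 8.42% were at 0. A further 14 members lay under a peak in 1 list, so that 23.4% of members lay in 0 or 1 list, against 13.9% of other genes. The 11 members (8.03%) touched in all 20 lists compare with 12.6% of other genes, and include RPL16A, RPL17B, RPL26B, RPL43B and RPS20. The median gene was touched in 8 lists, against 12 for other genes, which are longer (median 1230 bp against 771 bp). The 88 mitochondrial ribosomal protein genes were close to the class, with 12.5% at 0, 21.6% in 0 or 1 list and a median of 8. In 0 or 1 list lay 5.26% of 19 glycolytic genes and 9.09% of 11 elongation factor genes. Of the 367 other genes with the whole body under wild-type Rpb1 peaks, 7.90% did. The 10 most covered members of a list held 23.6% to 46.6% of the covered bases of the class, and 12 to 26 members held 50% of them.

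RPS20, whose protein lies in the head of the small subunit, had the highest mean. Its cover ran from 27.8% in S-phase wild type to 77.6% in log sen1top1, with a median of 68.1%, and it was at least 66.4% in every closely spaced list. RPL43B followed, with a lowest value of 11.6%, a median of 65.4% and 100% in all 6 widely spaced lists. RPS26B (mean 47.6%), RPL31A (46.6%), RPL26B (44.4%) and RPL24B (43.2%) came next. RPL31A and RPL26B encode proteins at the exit of the peptide tunnel. RPL26B was never below 14.9%, while RPS26B was at 0 in 5 of the 20 lists. RPL15B, the member without Rpb1, was 91.5% covered by bTMP in S-phase wild type and 61.3% in S-phase sen1, and at 0 in the other 18 lists.

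**Figure D4:**
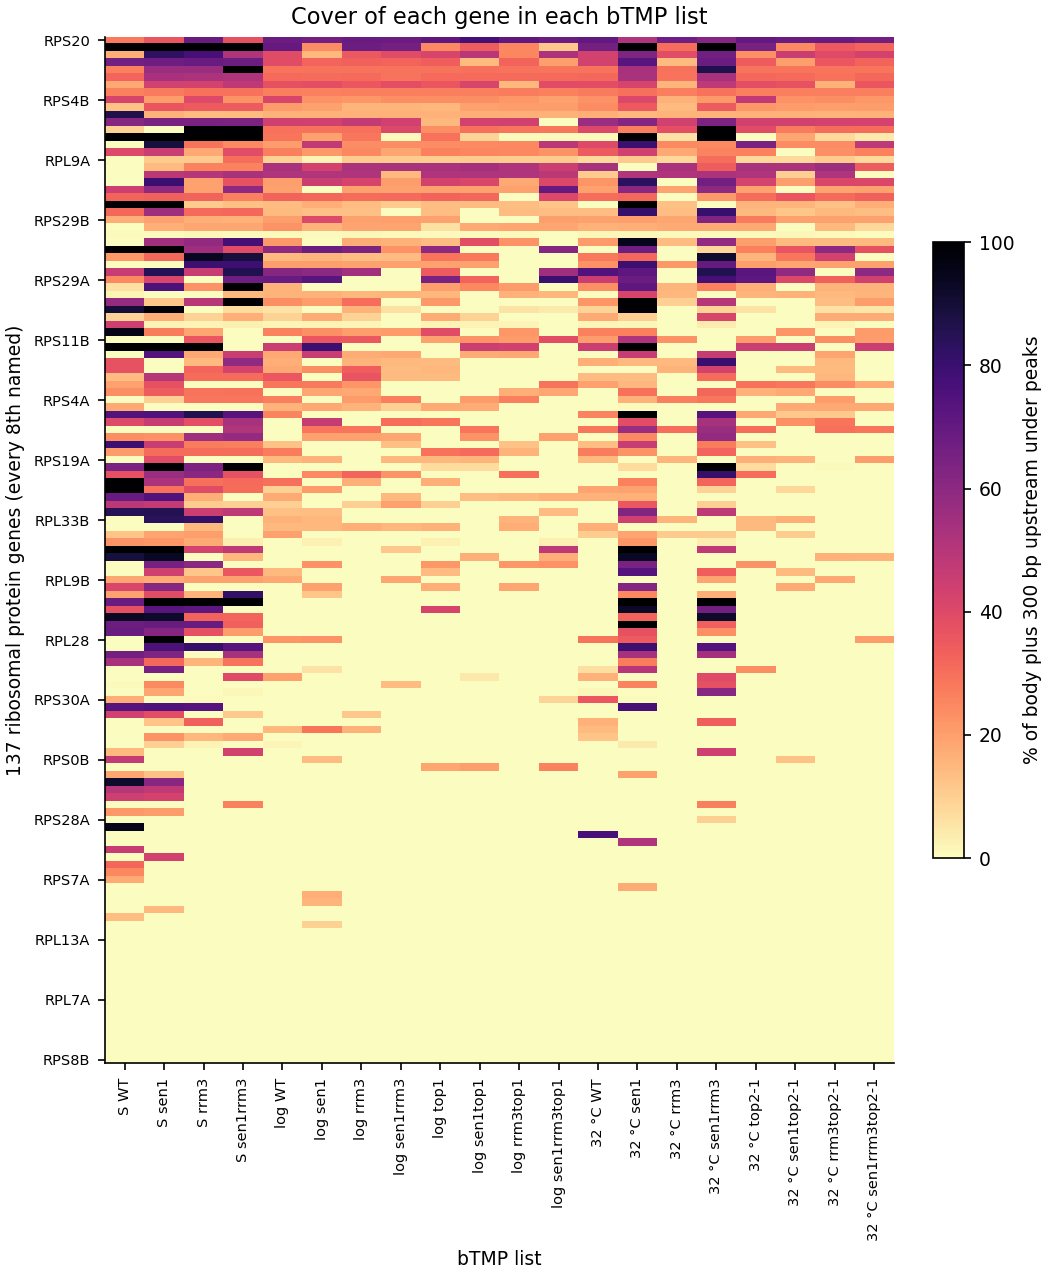
Percent of body plus 300 bp upstream under bTMP peaks for each of the 137 genes (rows, ordered by the number of lists touched and then by mean, every 8th named) in the 20 lists (columns). The upper rows are covered in nearly all lists, 18 rows at the bottom in none, and the S-phase, 32 °C sen1 and 32 °C sen1rrm3 columns hold the values above 90%.

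Large-subunit and small-subunit genes did not differ steadily. The difference in relative coverage, large minus small, had a mean of 0.035 ± 0.23 (SD over 20 lists), with 8 lists above 0 and 12 below. This was for body plus upstream, where it followed the kind of list: 6 of 6 widely spaced lists were above 0 (mean 0.24), and 2 of 14 closely spaced ones (mean -0.05). For the body alone 6 of 6 and 8 of 14 were above 0 (mean over all lists 0.11), and for the upstream side 4 of 6 and 2 of 14. The widely spaced lists include the 4 S-phase lists, so kind of list and condition cannot be fully told apart. In S-phase wild type the large-subunit genes were at 1.72. Of the 5 stalk genes, RPP0, RPP2A and RPP2B lay under no bTMP peak in any list. RPP1A was touched in 10 lists with a mean cover of 22.9%, reached 100% in S-phase sen1 and sen1rrm3 and in 32 °C sen1rrm3, and was at most 7.25% in the closely spaced lists. RPP1B was touched in 14 lists, with a mean of 3.64%. Single-copy genes were above duplicated genes in 15 of 20 lists, by a mean of 0.21 ± 0.18. For Rpb1, body plus upstream, large-subunit genes were below small-subunit genes in 4 of 4 lists, by a mean of 0.11 on a relative coverage above 3.9, a difference of -0.11.

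Copies of a pair often differed. Over the 20 lists the A copy had the higher mean bTMP cover in 26 pairs, the B copy in 30, and 3 pairs were equal. The median size of the difference was 12.2 percentage points, and it reached 20 points in 15 pairs. In 12 pairs a copy lay under peaks in at least 15 lists while the other did so in at most 5. Both copies lay in at least 15 lists in 3 pairs, and both in at most 1 list in 7. The 118 duplicated genes were themselves widely spread, with 36.4% touched in under 5 lists and 18.6% in 18 to 20. Whether copies differed more than unrelated members was not tested. RPL24, whose protein forms a bridge between the subunits, had the largest gap: RPL24B averaged 43.2% and was touched in 16 lists, RPL24A 0.475% and 1 list. RPL16A averaged 41.5% and was touched in all 20 lists, RPL16B 0.877%. RPL22A averaged 40.4% against 2.66% for RPL22B. RPL17B was touched in all 20 lists with a mean of 35.2%, and RPL17A in none. RPL26B averaged 44.4% against 13.5% for RPL26A. At the other end, both copies of RPL7, RPL13 and RPP2 were at 0 throughout. Across the 59 pairs the means of the copies had a Spearman's rho of 0.25. Near-identical copies can lose or share reads in alignment, and the sources used here do not say how reads mapping to several places were treated. Both members of each pair except RPL15 were covered by Rpb1.

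Of the 4 mutations, top1 and rrm3 went with lower relative bTMP coverage of the class. The comparisons share lists: the log-phase lists, for example, enter those for sen1, rrm3 and top1. The 10 rrm3 pairs (lists that differ in rrm3 alone, in 5 combinations of condition and topoisomerase) had a mean log2 difference in relative coverage of -0.31 ± 0.23 (SD, n = 10), and 9 of the 10 were lower. Mean differences were -0.53 in S phase, -0.47 in log phase, -0.37 at 32 °C, -0.18 with top2-1 and -0.03 with top1. The 3 widely spaced rrm3 pairs had a mean of -0.43, and the 7 closely spaced ones -0.26. Large-subunit genes were lower in 10 of 10 pairs, 7 of 7 closely and 3 of 3 widely spaced, and small-subunit genes in 9. The body carried more of it (-0.36) than the promoter side (-0.19). Over all protein-coding genes the mean was 0.0025 ± 0.049, with 0.034 over the body and -0.084 upstream. Spread over genes, 80 of 137 members had a lower mean with rrm3, 39 a higher and 18 the same, where 49.6% of all protein-coding genes were lower and 41.7% higher. The mean over members is a description, so it carries no p.

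The class mean did not hang on any single gene. Leaving out RPL36A moved the rrm3 value to -0.33, RPS4A to -0.33, RPL26B to -0.33 and RPS26A to -0.30, the 4 members with the most weight. Without the 10 members that pull it down most the value was -0.21, and without 20 it was -0.13. Those members were picked by their pull on this same value, so the direction of the move was set by that choice.

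No gene passed the limma test for rrm3. The fit covered the 4423 protein-coding genes with cover above 0 in at least 5 of the 20 lists, 89 of them members, since 48 members had too few lists. At a Benjamini-Hochberg adjusted p of 0.05, 0% of genes were called higher and 0% lower. At an unadjusted p under 0.05 there were 133 higher and 214 lower genes, 2 and 6 of them members, and the exact sign-flip permutation test also called none, with 137 and 193 genes under 0.05. The fit was also run on data simulated for the rrm3 comparison over these 4423 genes. It recovered 46% of 200 genes changed by 20 points, with 6 false calls. Of 200 genes changed by 40 points it recovered 92.5%, with 11 false calls. Measured cover is a bounded share of bases, and for many members it was 0 in several lists. Some rrm3 differences also lay mainly in the widely spaced pairs. Whether the recovered shares hold for such cover was not tested.

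RPS26A, whose protein lines the mRNA exit channel, had the largest difference. Without rrm3 its cover was 100% in S-phase wild type and sen1 and in sen1 at 32 °C, 45.3% in log wild type, 79.4% in log sen1, 45.2% in sen1top1, 45% in 32 °C wild type, top2-1 and sen1top2-1, and 0 in top1. With rrm3 it was 100% in S-phase rrm3, 43.6% in rrm3top1, 44.7% in sen1rrm3top2-1 and 0 in the remaining 7 lists. It was lower in 8 of 10 pairs and higher in 1, a mean difference of -41.7 points ± 45.9 (SD, n = 10; limma adjusted p = 0.628). The groups overlapped, but a peak was present in 9 of 10 lists without rrm3 and in 3 of 10 with it.

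RPS29A was touched in all 10 lists without rrm3, from 24.4% to 72.8% with a median of 54.7%, and in 5 of 10 with it, from 0 to 79.8% with a median of 16.6%. Its mean difference was -22.7 points, and it was larger in closely spaced pairs (-34.1) than in widely spaced ones (3.89). RPS4A, for a small-subunit protein, went the other way: it was touched in 4 of 10 lists without rrm3 (median 0, highest 26.8%) and in 8 of 10 with it (median 26.6%, highest 28.5%), a difference of 13.3 points. A rule asked for differences of 10 points or more in one direction in 7 or more of the 10 pairs, and the reverse in at most 1. By it RPS26A was lower, among 0.417% of all genes, and RPS4A higher, among 0.2%. For sen1 the rule took no member, where it took 0.283% of all genes higher and 0.0167% lower. Neither met that rule once all lists were held to the same number of peaks.

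Several of the largest rrm3 differences came from the widely spaced pairs. RPL2A, for a protein of the peptidyl transferase center, was 100% covered in S-phase wild type, S-phase sen1 and 32 °C sen1, and at 10.8%, 13.2% and 0 in their rrm3 partners. In the 7 closely spaced pairs its means were 12.7% without rrm3 and 13.2% with it. RPL14B stood at 89.5%, 98.9% and 98.9% in the 3 widely spaced lists without rrm3 and at 0, 6.8% and 8.8% in those with it, and RPL35B at 88.8%, 93.5% and 93.6% against 0, 14.9% and 0. In closely spaced pairs RPL14B and RPL35B differed by 3.14 and 4.61 points. RPL36A was the reverse, at 9.02%, 0 and 26.8% without rrm3 and 100% in all 3 with it, and it differed by 0.898 points in closely spaced pairs. A rule chosen after these values were seen, at least 50 points the same way in all 3 widely spaced pairs, took 4 members lower (RPL2A, RPL14B, RPL31B and RPL35B), among 1% of all genes, and 2 higher (RPL35A and RPL36A), among 0.566%. RPL39 (11.7 points), RPL32 (11.4) and RPS1B (11.4) had other large positive differences, and all 3 were larger in widely spaced pairs, at 33.7, 28.0 and 34.1 points.

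**Figure D5:**
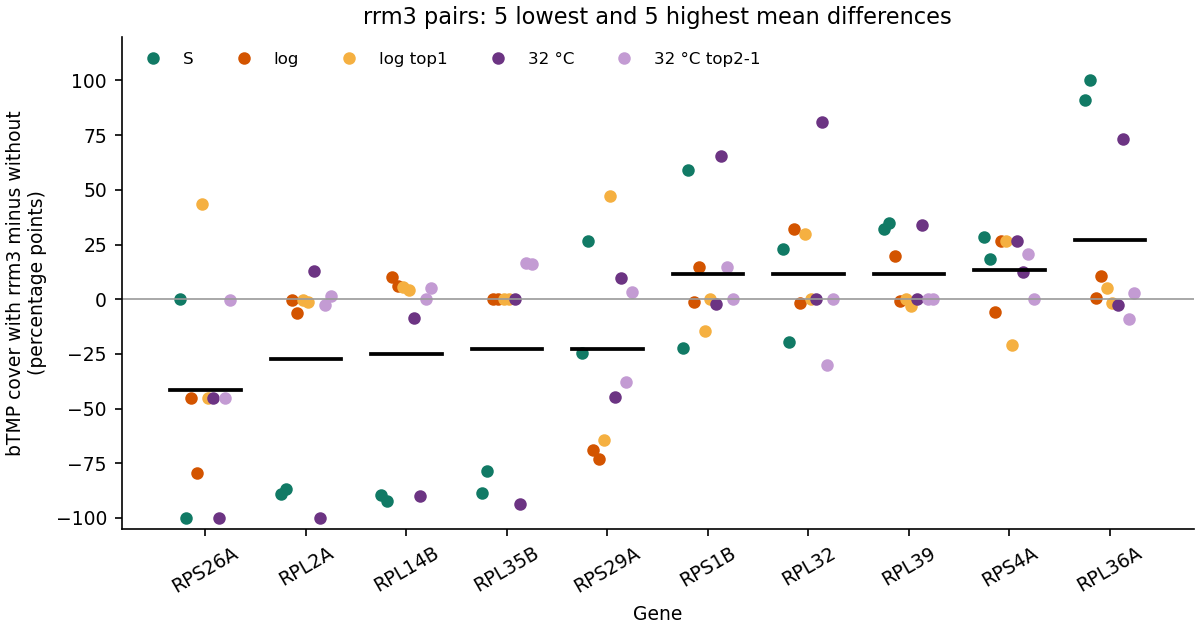
Difference in bTMP cover with rrm3 minus without, in percentage points, for the 5 genes with the lowest and the 5 with the highest mean over 10 pairs. Points are pairs coloured by condition and bars are means. RPL2A, RPL14B and RPL35B each have 3 pairs between -100 and -78.7 points, while RPS26A is lower in 8 pairs.

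The top1 mutation went with the lowest class values. In the 4 log-phase pairs with and without top1 the mean log2 difference was -0.59 ± 0.26 (SD, n = 4), lower in 4 of 4, from -0.84 to -0.32. Both sides took part, with -0.78 upstream and -0.48 over the body. All protein-coding genes had a mean of 0.042, with -0.39 upstream (lower in 4 of 4 pairs) and 0.19 over the body. The class mean was -0.67 without the pair of the list labelled sen1rrm3top1. Relative coverage is set against the genome share, which was 9.44% to 11.7% in the top1 lists and 8.34% to 10.2% in the other log lists. In unscaled cover the class stood at 12.2%, 12.2%, 10.5% and 8.14% in log wild type, sen1, rrm3 and sen1rrm3. With top1 it stood at 10.1%, 8.58%, 7.27% and 8.98% in the same order. By gene, 59 members had a lower mean with top1, 32 a higher and 46 the same, where 29.0% of all genes were lower and 46.8% higher. With 4 pairs an exact permutation test cannot go below 0.125, and limma called 0% of genes higher and 0% lower, with 153 and 44 genes at an unadjusted p under 0.05, 0 and 1 of them members. RPL43B was the member, at 69.2%, 24.0%, 67.9% and 65.7% in log wild type, sen1, rrm3 and sen1rrm3 and at 24.2%, 34.3%, 25.3% and 11.6% in the same strains with top1. The highest top1 value, 34.3%, was above the lowest value without it, so the groups overlapped. RPL24B and RPS26B had mean differences of -23.2 and -21.8 points. RPS25B (17.5 points), RPS22B (16.2) and RPS23B (12.6), all of the small subunit, had the largest positive differences, and RPS22B was at 0 in all 4 lists without top1 and in 1 of 4 with it.

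For sen1 and top2-1 the class had no common direction in relative coverage. The 10 sen1 pairs had a mean log2 difference of 0.0041 ± 0.19 (SD), with 5 lower and 5 higher. In unscaled cover, 84 members had a higher mean with sen1, 35 a lower and 18 the same, where 65.0% of all genes were higher and 26.3% lower. The 2 pairs at 32 °C without top2-1 had a mean of 0.24, and they set a widely spaced sen1 list against a closely spaced one. Within pairs of the same kind the mean was -0.06. limma called 0% of genes higher and 0% lower, with 411 and 25 genes at an unadjusted p under 0.05, 11 and 1 of them members. The fit used unscaled cover and had no term for the kind of list. The exact test called none, with 222 and 41 genes under 0.05, and its smallest p was again 0.00195. The largest positive differences were in RPL29 (23.1 points), RPS6B (22.7), RPL1B (22.1), RPS29A (21.8) and RPL31B (21.4). In the 6 closely spaced pairs the same 5 genes differed by 0 to 9.99 points. RPL29 and RPL1B were at 0 in all 14 closely spaced lists, so their whole difference came from widely spaced lists. RPS6B, the target of growth-dependent phosphorylation, moved by 0.33 points in closely spaced pairs, and by 80 points between S-phase wild type (0) and sen1. The largest negative differences were smaller: RPS30B (-10.7 points), RPL40A (-9.53), RPL22A (-9.50), RPL21A (-8.10) and RPL41A (-7.67). RPL40A, which encodes a ubiquitin fused to a ribosomal protein, and RPL41A each rested on 1 list.

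The 4 top2-1 pairs had a mean of 0.0038 ± 0.21 (SD), 3 lower and 1 higher. Of these, 2 mix kinds of list. By gene, 91 members (66.4%) had a lower mean with top2-1, 11 (8.03%) a higher and 35 the same. Of all protein-coding genes 69.0% were lower and 14.4% higher, so the share of lower members was near that of all genes. The median difference was -6.86 points for members, against -5.15 over all genes. RPL29 (-50 points), RPL36B (-44.1) and RPL38 (-39.7) had the largest negative differences, and differed by 0, 0.594 and 0 points in the 2 pairs of the same kind. RPL24B (21.0), RPS8A (16.2) and RPL22A (13.7) had the largest positive differences. RPS8A was higher in 4 of 4 pairs: it was at 19.7%, 15.2%, 0 and 0 in wild type, sen1, rrm3 and sen1rrm3 at 32 °C and at 29.6%, 28.1%, 23.9% and 17.9% with top2-1. limma called 0% of genes higher and 0% lower, with 31 and 781 genes at an unadjusted p under 0.05, 1 and 17 of them members, and 4 pairs cannot go below 0.125 in the exact test. The fit used unscaled cover and had no term for the kind of list. Of the 4 lists at 32 °C without top2-1, 2 were widely spaced, so these counts also carry that difference. The interaction of sen1 with rrm3 gave no call either, with 84 genes at an unadjusted p under 0.05, 4 of them members.

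Other gene lists were described by their own counts and class values. Of 18 genes that regulate the class, such as RAP1, FHL1, IFH1 and SFP1, 10 had a lower and 8 a higher mean with rrm3, and 7 a lower and 11 a higher mean with top1. Their mean log2 class differences were 0.0082 ± 0.34 for rrm3 and 0.25 ± 0.27 for top1 (SD; 10 and 4 pairs here and for the lists that follow). Of 88 mitochondrial ribosomal protein genes, 42 were lower and 35 higher with rrm3, and 20 lower and 34 higher with top1, with class differences of 0.14 ± 0.37 and -0.14 ± 0.15. Of 19 glycolytic genes, 18 were lower and 1 higher with rrm3, and 14 lower and 3 higher with top1. Their class differences, -0.42 ± 0.41 for rrm3 and -1.19 ± 0.28 for top1, were larger in size than the -0.31 and -0.59 of the ribosomal protein genes. Of 11 elongation factor genes, 4 were lower and 7 higher with rrm3, and 6 lower and 2 higher with top1, with class differences of 0.18 ± 0.48 and -1.06 ± 0.29. The difference between these lists was not tested.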

How the data were processed

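Tools named in the submitters' processing notes are deepTools, SAMtools, Picard and Bowtie2. The sources used here give no versions, peak caller, settings or genome build. The authors deposited 1 peak list per immunoprecipitate, with an unexplained score per peak that served only to rank peaks within a list. The 24 inputs were not analysed here. The lists carry no read counts, so depth is unknown and can move with list length, and no depth-based interval is given.

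Peaks on the 16 nuclear chromosomes (12.1 Mb) were intersected with gene bodies and 300 bp upstream, from the RefSeq table of R64, with strand from systematic names and NumPy 2.4.6 and pandas 2.3.3. That table's positions are used but not printed. Coordinates printed are those of deposited peaks, counted from 1. The labels name each of the 48 samples by strain and condition. With 1 list per group, strain backgrounds served as repeats in pairs, and any p measures the spread between these lists.

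Single genes were tested with limma 3.58.1 (R 4.3.3; trend and robust; terms for the 5 conditions, sen1 and rrm3, 13 residual degrees of freedom), Benjamini-Hochberg over 4423 genes, and by an exact two-sided sign-flip permutation test. The fit was tested on simulated data. Named genes were the 6 highest and 6 lowest by mean bTMP cover (18 genes tied at 0), the 5 lowest and 5 highest differences for rrm3 and sen1 (3 for top1 and top2-1), every member called by a rule, members under 90% Rpb1 body cover or changed by 50 points upstream, the 4 longest sen1 extensions, 5 paralog pairs at the top and 3 at the bottom, and the 4 members with most weight in the rrm3 value. Other genes named (RPL23A, RPL11B, RPS15, RPL31A at its peak end, RPL15A as a partner, and RPL31B and RPL35A under the rule for widely spaced pairs) were chosen after their values were seen. Members and lists were chosen with earlier results of these data known. Alternatives were other windows, thresholds, scalings, equal list lengths, the upper 50% of peaks by score, single-copy genes and leaving out pairs. Promoter motifs and protein sequences were not analysed here.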

Additional observations from a re-analysis of the deposited data

Results flagged for a closer look

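The sen1 pairs went opposite ways in different conditions for the class. Ribosomal protein genes were lower with sen1 in both log-phase pairs, by a mean log2 difference of -0.087, and higher in both 32 °C pairs, by 0.24. Large-subunit genes were lower in both S-phase pairs (-0.24) and in both log-phase top1 pairs (-0.036), and higher in both 32 °C pairs (0.25). The difference between conditions was not tested. The 32 °C pairs set a widely spaced list against a closely spaced one, and the part of that in the result was not tested.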

How the results depend on the processing

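Of the alternatives other than leaving out lists, 191 recomputed values were taken as unchanged, 30 moved and 10 reversed. A count was taken as unchanged when it was equal or of similar size. Many of the 191 were counts of limma or exact calls that were 0 and stayed 0. They have no direction, so the 191 does not measure how steady the class values were. When a pair was left out in turn, the mean log2 difference ranged from -0.36 to -0.27 for rrm3, -0.037 to 0.037 for sen1, -0.67 to -0.50 for top1 and -0.10 to 0.052 for top2-1. limma called 0 genes whichever block of lists was left out, except 1 lower gene with top2-1 without the S-phase lists. The rrm3 and top1 values stayed below 0 in every alternative run. The sen1 value turned to -0.050 for the upstream 300 bp alone, -0.025 with lists of equal length, -0.056 with pairs of the same spacing, -0.025 for single-copy genes and -0.11 for the upper 50% of peaks by score. Without each of 3 pairs at 32 °C it was also below 0, at -0.0086 (wild type), -0.037 (rrm3) and -0.019 (top2-1). The top2-1 value turned to -0.25 upstream, -0.057 for single-copy genes, -0.10 without the rrm3 pair and -0.0061 with RPP1 included, an alternative chosen after seeing the data. Large minus small subunit turned to -0.13 upstream and -0.0033 for the upper 50% of peaks. Mean Rpb1 cover upstream was 71.2%, 55%, 71.4% and 67.5% in wild type, sen1, rrm3 and sen1rrm3 with a 150 bp window, and 34.0%, 29.5%, 34.7% and 33.4% in the same order with 500 bp. Genes gained over all genes, 8 in rrm3, 113 in sen1 and 64 in sen1rrm3, became 4 in rrm3 and 69 in sen1 with 80% against at most 20%, and 43 in rrm3 and 107 in sen1rrm3 with the upper 50% of peaks. Genes lost, 13, 43 and 43, became 5 in rrm3 and 19 in sen1rrm3, and 75, 144 and 135 for rrm3, sen1 and sen1rrm3. Under the rule of 7 of 10 pairs, differences of 20 points left 2 higher (of 12) and 6 lower (of 25) with rrm3, and 2 higher (of 17) and 0 lower (of 1) with sen1, with 0 members higher with rrm3. With lists of equal length there were 24 higher with rrm3 and 2 lower with sen1, with 0 members either way for rrm3 and 1 member, RPS6B, higher with sen1. limma called 1 higher gene with top1 when all genes with any cover were tested, 1 higher and 3 lower with cover divided by the covered genome share, and 1 lower with equal lengths, with 0 members in each case. The causes of these moves were not tested. No replicate block could be fitted, since each group has 1 list, and lists were paired by strain background and condition. The motif search and the protein comparison were not run. Read depth is unknown, so it is not known how far it limits the lists.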
